A study of Mus musculus with 3 samples.

Results

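The genes described here act in making fatty acids from citrate, or in lengthening and desaturating fatty acid chains. They are Acly, Me1, Acaca, Fasn, Elovl6, Elovl5, Scd1, Scd2, Fads1 and Fads2, chosen by name for their enzymatic step, and make up 10 of the 19938 genes that the arrays measured with a probe set of 1 gene. The 3 groups were sorted from the pancreas of C57BL/6 mice older than 6 weeks, and RNA of each was hybridised to 1 array. Beta cells came from 3 pooled untreated mice of genotype Fbw7 +/+ with MIP-GFP, a green fluorescent reporter that labels beta cells. Wild-type ductal cells came from 6 pooled mice of genotype Fbw7 +/+, Ck19-CreERT and R26-LSL-YFP. Fbw7-deleted ductal cells came from 6 pooled mice that were Fbw7 F/F and otherwise carried the same alleles. Both ductal groups received tamoxifen on 5 days and were collected 7 days after the last injection, so the wild-type ductal cells also carried the recombinase and the reporter. The recombinase is driven from the cytokeratin 19 gene and acts, with its yellow fluorescent reporter, in any cell in which that gene is active. Each array was made from RNA of 30000 sorted cells.

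Cytosolic acetyl-CoA, the building block of fatty acids, is made from citrate by ATP-citrate lyase (Acly), and malic enzyme (Me1) is a source of the NADPH that the synthesis consumes. Acetyl-CoA carboxylase (Acaca) makes malonyl-CoA in the committed step, and fatty acid synthase (Fasn) builds palmitate from it. Elongases and desaturases modify fatty acid chains. Many genes of the set are targets of the SREBP transcription factors, whose nuclear forms are known substrates of the Fbw7 ubiquitin ligase in other cells.

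The values are log2 intensities, so a difference of 1 is a 2-fold difference. For each pair of arrays, genes were compared only where the higher level exceeded the floor of its array, the floor being the median of all probe sets of 1 gene (5.30 for the beta cell array, 5.23 for wild-type and 5.24 for Fbw7-deleted ductal cells). With 1 array per group there are no replicates and no p-values, and a call means only that 2 arrays lay at least 2-fold apart. Where a level lay below the floor, the fold is a bound taken against that floor and is written with "at least". Counts of calls use the values as deposited, so a counted gene can be less than 2-fold from that floor. In pooled cells, fewer cells of a type and less RNA per cell cannot be told apart.

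The labels were checked against marker genes. Ins2, which encodes insulin, had a level of 11.04 on the beta cell array, 5.31 on the wild-type ductal array and 5.87 on the deleted one. Krt19, the keratin whose promoter drives the recombinase, stood at 6.71, 9.13 and 9.53 on the same arrays. The duct list as a whole separated beta cells less from wild-type than from deleted ductal cells. Of 11 duct markers compared with wild-type cells, 5 were at least 2-fold lower in beta cells, where 25.8% of all genes were. In that comparison 3 were higher and 1 identical. Against deleted cells 11 of 12 were at least 2-fold lower, where 23.0% of all genes were. Of 14 beta cell markers 9 lay above the floor in beta cells and 4 in each ductal group, and of 13 duct markers 10 did so in beta, 11 in wild-type ductal and 12 in deleted ductal cells. Pdx1, a transcription factor of beta cells, lay below the floor on all 3 arrays (5.14 in beta cells), as did Cftr, the chloride channel gene of duct cells (5.13 in deleted ductal cells). Acinar genes were present on every array, with 10 of 12 above the floor on each and a log2 summed level of 15.2 for beta, 13.5 for wild-type ductal and 14.8 for deleted ductal cells. All 12 mesothelial markers lay above the floor in both ductal groups, with summed levels of 13.8 and 13.7, against 6 of 12 and 9.25 in beta cells. Of 2 probe sets for Fbxw7, the gene of Fbw7, one lay below the floor on all 3 arrays, and the other read 7.00 in beta cells and, in the ductal groups, 6.32 in wild-type and 5.71 in deleted cells, which is -0.61 from wild-type to deleted. Whether either covers the deleted part is not known here, so they do not check the deletion.

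Between Fbw7-deleted and wild-type ductal cells none of the 10 genes was 2-fold apart. Fads1, Scd2, Fads2 and Me1 were between 1.40-fold and 1.68-fold higher in the deleted ductal cells, Elovl6 was 1.75-fold lower, and the other genes differed by log2 0.22 or less. Among all 10035 genes compared, 1.43% were 2-fold or more higher in deleted cells and 1.81% were 2-fold or more lower. At 1.5-fold, Fads1 was the 1 gene of the set that was higher, where 2.81% of all genes were, and Elovl6 the 1 that was lower, where 7.25% of all genes were. The median difference of the 10 genes was 0, as was that of all genes. In the set 4 genes were higher, 4 lower and 2 identical, and among all genes compared 48.2% held exactly the same value on both ductal arrays.

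**Figure D1:**
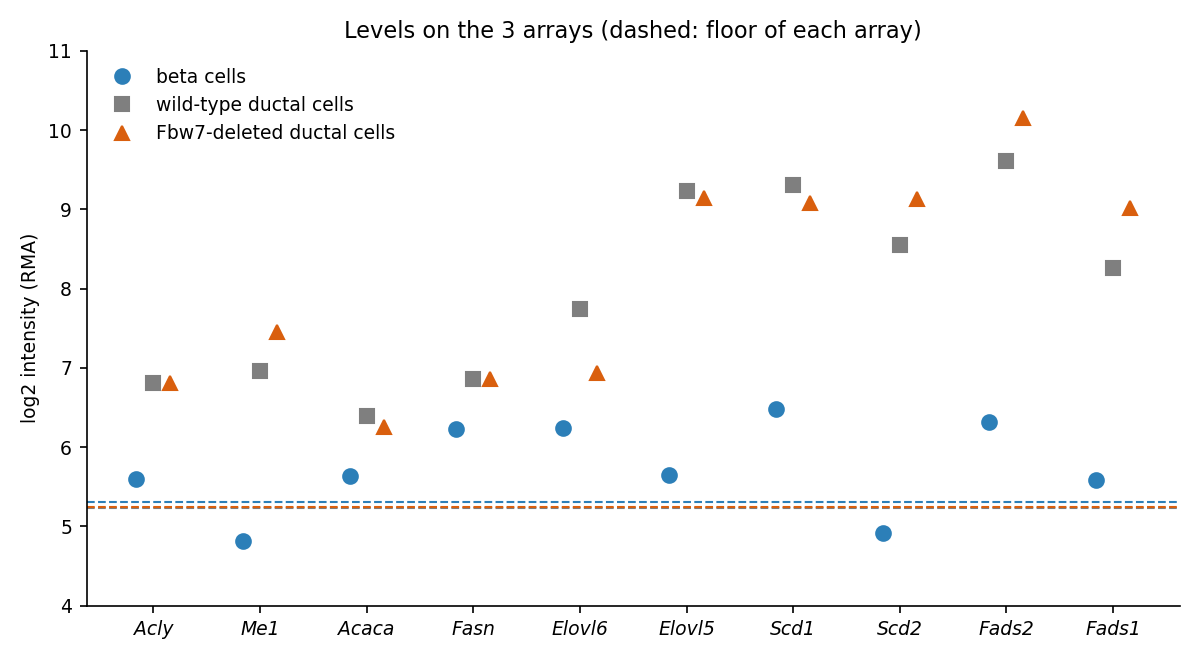
Log2 level of each of the 10 genes on the 3 arrays (1 point per array, with no error because each group is 1 array), ordered by enzymatic step, with the floor of each array. All 10 genes were lowest in beta cells, and the points of the ductal arrays lie within log2 0.81 of each other for every gene.

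The promoters of the 10 genes were searched for motifs. Whether a motif bears on the level of a gene was not tested. RefSeq promoters on GRCm38.p6, from 250 bases before to 50 after the start, were found for 7 of the 10 genes, with 2 for Me1. Scd1, Scd2 and Fads1 were not matched. The 250 bases before the start are printed for 3 genes, Fasn, which differed little between the cell types, and Elovl5 and Fads2, which differed much, from 5′ to 3′ along the gene, with motif matches in capitals. Fasn is at chr11:120824548-120824797 on the minus strand, Elovl5 at chr9:77917115-77917364 on the plus strand and Fads2 at chr19:10101504-10101753 on the minus strand.
Fasn: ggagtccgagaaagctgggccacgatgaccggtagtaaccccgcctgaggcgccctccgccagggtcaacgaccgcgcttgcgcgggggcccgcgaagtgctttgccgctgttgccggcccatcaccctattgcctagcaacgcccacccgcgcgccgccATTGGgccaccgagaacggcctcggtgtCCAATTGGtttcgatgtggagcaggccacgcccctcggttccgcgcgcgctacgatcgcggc
Elovl5: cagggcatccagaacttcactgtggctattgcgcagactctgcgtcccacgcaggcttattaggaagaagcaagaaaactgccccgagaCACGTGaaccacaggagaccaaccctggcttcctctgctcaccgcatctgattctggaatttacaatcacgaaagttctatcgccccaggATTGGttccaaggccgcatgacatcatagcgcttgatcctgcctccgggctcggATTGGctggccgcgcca
Fads2: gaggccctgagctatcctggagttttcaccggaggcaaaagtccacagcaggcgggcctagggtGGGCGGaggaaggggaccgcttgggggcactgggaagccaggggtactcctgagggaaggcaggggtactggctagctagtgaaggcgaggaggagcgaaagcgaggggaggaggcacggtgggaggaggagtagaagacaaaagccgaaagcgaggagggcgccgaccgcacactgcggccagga

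Each motif was searched on both strands. CCAAT, the letters bound by NF-Y, was in 4 of the 7 genes (Acly, Elovl5, Fasn and Me1) and in 37.4% of the 32851 promoters of the table. In Fasn it begins 90, 62 and 59 bases before the start, the last of these overlapping the one before on the opposite strand, and in Elovl5 71 and 17 bases before it. GGGCGG, the GC box, was in 3 genes (Acly, Fads2 and Me1) and in 35.7% of promoters, and begins 186 bases before the start of Fads2. CACGTG, an E-box, was in Elovl5, 161 bases before the start, and in 7.15% of promoters. TCACNCCAC, the core of the sterol regulatory element, and TATAAA, the TATA box, were in 0 of the 7 genes and in 1.24% and 13.6% of promoters. Elovl6 and Acaca held none of the 5. A match describes these letters, and a missing one says only that they are not in this window.

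Among the genes that supply the pathway, Acly had a level of 5.60 in beta cells and 6.81 on the wild-type as well as the deleted ductal array. The ductal values were identical. Me1 stood below the floor in beta cells, at 4.82, and at 6.96 and 7.45 in wild-type and deleted ductal cells. The deleted cells were thus higher by 0.49, or 1.40-fold, and 3.52% of all genes had a larger positive difference. A second Me1 probe set read 4.23, 6.43 and 7.03, a difference of 0.60 between the ductal arrays, so the probe sets share the order of the 3 groups.

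The enzymes of chain synthesis differed by 0.14 or less between the ductal arrays. Acaca, for the committed step, read 5.64 in beta cells, with 6.40 and 6.26 in wild-type and deleted ductal cells, a ductal difference of -0.14. A second Acaca probe set lay below the floor on all 3 arrays, at 4.62, 4.72 and 4.62. Fasn, for the synthase itself and with 3 CCAAT matches in the promoter printed here, read 6.23 in beta cells and 6.86 on both ductal arrays, which held the same value.

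The elongases differed from each other. Elovl6, which extends saturated chains such as palmitate, had a level of 6.24 in beta cells, with 7.74 in the wild-type ductal cells and 6.93 in the deleted ones. Its level in deleted cells thus lay between those of the other arrays, -0.81 from wild-type ductal cells, and 3.31% of all genes had a more negative difference. Elovl5, which extends polyunsaturated chains, had levels of 5.64, 9.23 and 9.14. Its ductal difference of -0.09 turned to 0.02 after quantile normalization and to 0.01 after a loess trend was subtracted.

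The desaturases included the 3 largest positive differences of the set. Scd1 and Scd2 place the first double bond into saturated chains. Scd1 read 6.48 for beta, 9.30 for wild-type ductal and 9.08 for deleted ductal cells, a ductal difference of -0.22. Scd2 read 4.92 in beta cells, below the floor, then 8.55 and 9.13 in wild-type and deleted ductal cells, a ductal difference of 0.58 or 1.49-fold. The paralogs therefore differed in the sign of the difference between the ductal arrays, and no test of that contrast is possible with 1 array each.

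Fads2 and Fads1 act in turn on essential fatty acids to make long polyunsaturated ones. Fads2 read 6.31 for beta, 9.61 for wild-type ductal and 10.15 for deleted ductal cells, a ductal difference of 0.55 or 1.46-fold. Fads1 read 5.58, 8.26 and 9.01, a ductal difference of 0.75 or 1.68-fold, and 2.11% of all genes had a larger one. Both genes thus held the same order, with beta cells lowest and deleted ductal cells highest. The corresponding share was 2.82% for Scd2 and 3.03% for Fads2. By step, the median ductal difference was 0.56 for the 4 desaturases and -0.45 for the 2 elongases. The latter lies midway between -0.81 for Elovl6 and -0.09 for Elovl5. Of genes outside the set that entered, the elongases Elovl7 and Elovl1 differed by 0.51 and -0.35. The desaturases Fads3 and Fads6 were identical on both ductal arrays.

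**Figure D2:**
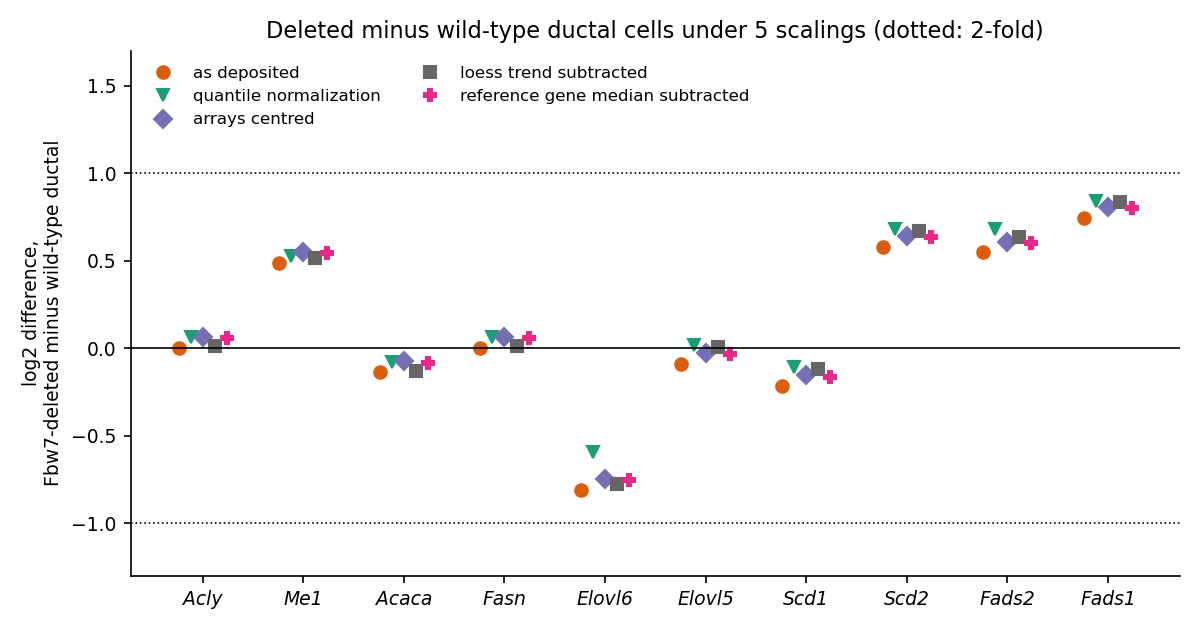
Difference of log2 levels, deleted minus wild-type ductal cells, for the 10 genes, as deposited and under 4 other scalings, with dotted lines at 2-fold. As deposited, Fads1 at 0.75 and Elovl6 at -0.81 lie farthest from 0, and no gene of the set passes 1 or -1 under any of the scalings shown.

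Marker genes of cell types also differed between the ductal arrays. Among all genes compared, 1.43% were at least 2-fold higher in deleted cells and 1.81% were at least 2-fold lower. All 12 duct markers that entered were higher in deleted cells, 7 of them at least 2-fold, with a median of 1.30. Krt19 differed by 0.41, Sox9, a transcription factor of duct cells, by 0.88 and Cdh1, the epithelial cadherin, by 2.63. Of 10 acinar genes 8 were at least 2-fold higher in deleted cells, with a median of 1.52, a difference of 1.36 for the carboxypeptidase gene Cpa1 and 2.78 for the trypsin inhibitor gene Spink1. Of 11 mesenchymal genes 4 were at least 2-fold lower, or 3 with low levels raised to the floor. The median of the 11 was -0.67, with -1.99 for the growth factor receptor gene Pdgfra. The 12 mesothelial markers had a median of -0.08, and none was 2-fold apart, nor was any of 6 endothelial or 3 leukocyte genes. Of 4 beta cell genes 1 was at least 2-fold higher, the glucose transporter gene Slc2a2 (1.26). The log2 summed level in wild-type and deleted ductal cells was 11.5 and 12.5 for duct, 13.5 and 14.8 for acinar and 13.5 and 12.9 for mesenchymal markers. Their part in the values of the lipid genes was not tested.

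Fat cells, which use the same enzymes, were looked for with 12 marker genes, of which 10 were measured. The defining genes Adipoq, for adiponectin, and Lep, for leptin, lay below the floor on all 3 arrays. Adipoq read 4.84 in beta cells and 4.09 on both ductal arrays, and Lep read 3.75, 2.69 and 3.18. Plin1, for a lipid droplet protein, read 5.43 in beta cells and 4.68 on both ductal arrays, where it was below the floor. Lipe and Fabp4 were the only markers above the floor in ductal cells. Lipe read 5.93 in beta cells and 6.32 on both ductal arrays. Fabp4, which endothelial cells also express, read 8.11, 7.47 and 6.37, a ductal difference of -1.10 that became -0.88 after quantile normalization. The summed level of the list was 9.12, 8.73 and 8.37 in the same order. Its part in the values of the lipid genes was not tested.

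The regulators of the pathway did not differ 2-fold between the ductal arrays. Srebf1, which encodes SREBP forms that activate fatty acid synthesis genes, held the value 6.54 on both, and Srebf2, whose product chiefly activates cholesterol synthesis genes, held 7.73 on both. Mlxipl, for the carbohydrate-responsive factor, read 5.04 in wild-type cells, below the floor, and 5.25 in deleted cells. Of 9 regulators that entered, none was 2-fold apart, and the median was 0. That median rests on exact ties, which 5 of the 9 held, beside 48.2% of all genes compared. The arrays measure transcripts and say nothing of the SREBP proteins.

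The neighbouring lists held few calls in the same comparison, in which 1.43% of all genes were at least 2-fold higher and 1.81% lower. None of 10 other elongation and desaturation genes, 11 oxidation genes or 5 uptake and binding genes was 2-fold apart, with medians of -0.02, -0.14 and 0. Of 9 genes for acetyl-CoA and NADPH supply, 1 was at least 2-fold lower in deleted cells. This was Pgd, for an NADPH-making step of the pentose phosphate pathway, at 7.73 in wild-type and 6.71 in deleted cells. Its difference of -1.02 became -0.78 after quantile normalization, -0.96 after centring of the arrays and -0.99 after loess. Of 10 glycerolipid synthesis genes, 1 was at least 2-fold lower, Acsl4, which activates polyunsaturated fatty acids for use in lipids, at 9.41 and 8.03, a difference of -1.38. The medians of these lists were -0.14 and -0.09.

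Beta cells had lower levels of every gene of the set than either ductal group. Of the 10 genes, 8 were at least 2-fold lower than in wild-type ductal cells, where 25.8% of the 11139 genes compared were, and 0 were at least 2-fold higher, where 6.37% were. Against deleted ductal cells 7 of 10 were at least 2-fold lower, where 23.0% of 11095 genes were, and 0 higher, where 5.13% were. The median difference of the set was -2.41 against wild-type and -2.62 against deleted ductal cells, or -2.17 and -2.38 once low levels were set to the floor. The medians over all genes were -0.11 and -0.05. All 10 genes were lowest in beta cells, as were 48.5% of the 11304 genes above the floor on any array. Both comparisons use the same beta cell array, and the cell type, the reporter and the tamoxifen treatment differ between beta and ductal cells at once, so they cannot be told apart.

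The desaturases and Elovl5 were at least 2-fold lower in beta cells than in both ductal groups. Against wild-type ductal cells, Scd2 was at least 9.48-fold lower, which is -3.25 with its beta cell level raised to the floor. Elovl5 was 12.0-fold lower (-3.59), Fads2, with its 1 GC box in the window, 9.80-fold (-3.29), Scd1 7.08-fold (-2.82) and Fads1 6.42-fold (-2.68). Against deleted ductal cells the differences were -3.82 for Scd2 with the same floor (at least 14.1-fold), -3.50 for Elovl5, -3.84 for Fads2, -2.61 for Scd1 and -3.43 for Fads1.

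Of the supply genes, Me1 was at least 3.16-fold lower than in wild-type and at least 4.43-fold lower than in deleted ductal cells, bounds that do not rank it against the desaturases. Acly was 2.31-fold lower than in both, at -1.21, and this call was lost after quantile normalization (-0.96), centring (-0.78) and loess (-0.87) against wild-type cells, and after centring (-0.84) and loess (-0.92) against deleted cells. Elovl6 was 2.83-fold lower than in wild-type cells (-1.50; -0.83 after quantile normalization and -0.66 after loess) and -0.69 from deleted cells. Acaca and Fasn were not called, at -0.76 and -0.63 against wild-type and -0.62 and -0.63 against deleted ductal cells. The median of both was -0.69 against wild-type cells.

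**Figure D3:**
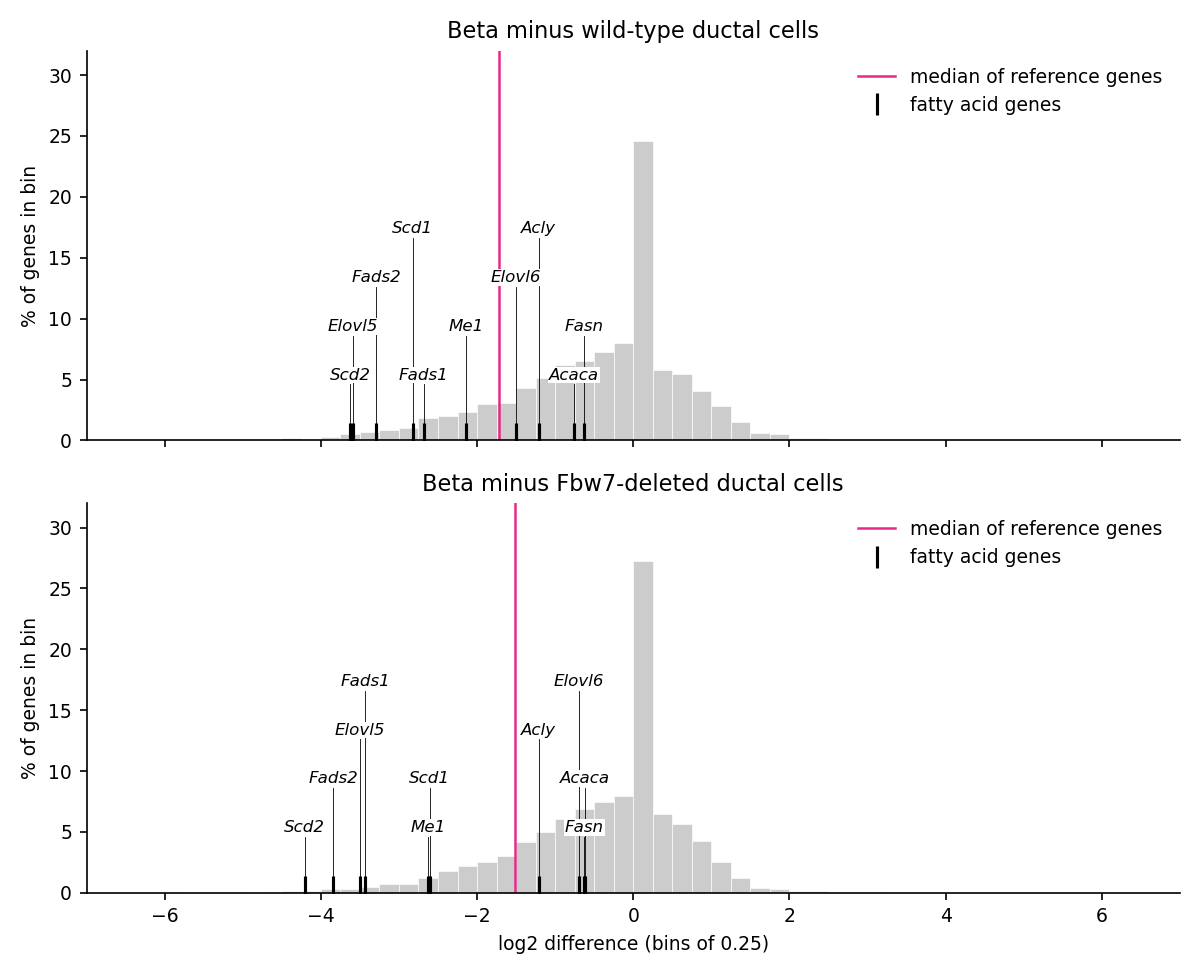
Difference of log2 levels, beta minus ductal cells, with the 10 genes as ticks over the percentage of all compared genes in bins of 0.25 and the median of the reference genes as a line; both panels share the beta cell array. As measured, the desaturases and Elovl5 lie between -4.21 and -2.61 on both, where Scd2 and Me1 were below the floor in beta cells, while Acaca and Fasn lie between -0.76 and -0.62.

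The beta cell array also stood apart as a whole. Its SD over probe sets was 1.57, against 2.02 and 1.97, and 8 of 11 reference genes of general cell function were at least 2-fold lower than in wild-type ductal cells, with a median of -1.72. Against deleted ductal cells 9 of 10 were lower, with a median of -1.51. Among all genes 25.8% and 23.0% were at least 2-fold lower in these 2 comparisons. The wild-type comparison gave 6 of 11 and -1.21 after quantile normalization, 7 of 11 and -1.28 after centring, and 2 of 11 and -0.69 after loess. The shares of all genes 2-fold lower were then 17.9%, 17.6% and 16.0%, so the count after loess lies near that share. Under these scalings, in the same order, the median over all genes shifted by 0.20, 0.44 and 0.13, and the higher share of all 2-fold calls went from 19.8% to 37.3%, 45.3% and 33.6%. The set's median was then -2.04, -1.98 and -1.64. With the median of the reference genes subtracted, which shifts all genes by 1.72, 67.2% of all genes were 2-fold higher and 4.28% lower, so that 94.0% of calls were higher. The median of the set was then -0.70, 4 of 10 genes stayed 2-fold lower (Scd1, Scd2, Elovl5 and Fads2) and Fasn became 2-fold higher (1.09). Between the ductal arrays, the higher share of calls was 44.2%, and 60.3% after quantile normalization.

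Markers of other cells differed as well. Against wild-type ductal cells, 8 of 10 acinar genes were at least 2-fold higher on the beta cell array (median 2.04), where 6.37% of all genes were. So were 6 of 10 leukocyte genes (median 2.02, or 0.71 with low levels raised to the floor). Of these, Ptprc and Fcer1g differed by only 0.64 and 0.78 with their ductal levels raised to the floor. Mesothelial genes were at least 2-fold lower in 11 of 12 cases (median -4.83) and mesenchymal ones in 9 of 11 (median -2.06). Among all genes 25.8% were 2-fold lower. Of 10 endothelial genes 4 passed 2-fold, 3 of them higher and 1 lower. The part of these cells in the differences of the lipid genes was not tested.

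Several other lipid lists had negative medians in beta cells against wild-type ductal cells, beside -1.72 for the reference genes and -0.11 for all genes. Of 10 other elongation and desaturation genes 7 were at least 2-fold lower, with a median of -1.61. With low levels raised to the floor, the count was 6 and the median -1.38. The lower genes included Elovl1, for an elongase of saturated very long chains, 10.5-fold lower. They also included Hacd2, for a dehydratase of the elongation cycle, at least 9.48-fold lower. Of 10 supply genes 6 were at least 2-fold lower, with a median of -1.37, among them Idh1, for an NADPH-making dehydrogenase, 6.69-fold, and Cs, for citrate synthase, 5.60-fold. Of 11 oxidation genes 6 were at least 2-fold lower, with a median of -1.61, among them Hadh, 7.67-fold, and Hadhb, at least 6.04-fold, both for steps of beta oxidation. Of 11 glycerolipid genes 4 were at least 2-fold lower, against 25.8% of all genes, including Acsl4 at least 17.2-fold and Acsl5 at least 3.14-fold. Their median was -0.41, which became 0.02 after centring, with 2 of 11 lower then and after quantile normalization and loess. After loess the supply list held 4 of 10 lower genes with a median of -0.57 (4 and -0.55 after quantile normalization), the oxidation list 3 of 11 with -0.76 and the other elongation list 4 of 10 with -0.89, where 16.0% of all genes were lower. Against deleted ductal cells, the counts of 2-fold lower genes were 7 of 10 for other elongation, 5 of 10 for supply, 6 of 11 for oxidation and 2 of 11 for glycerolipid genes, beside 23.0% of all genes; the last of these lies near the share of all genes.

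Regulators and uptake genes were mixed. Mlxipl was at least 3.04-fold higher in beta cells, at 6.84 against 5.04, and was the 1 regulator with a positive difference. Srebf2 (-1.48) and Insig1 (-1.22), for a protein that retains SREBP in the endoplasmic reticulum, were at least 2-fold lower. These calls were lost after quantile normalization (-0.80 and -0.41) and loess (-0.63 and -0.25), and that of Insig1 also after centring (-0.79). Srebf1 was not called, at 5.84 against 6.54. Of 7 uptake and binding genes 2 were at least 2-fold lower, Fabp5 (-2.44) and Fabp3 (-1.41, or -0.97 after centring), for fatty acid binding proteins. The 2 of 9 regulators and 2 of 7 uptake genes that were lower lie near the 25.8% of all genes. Cd36, for a fatty acid transporter, differed by 2.51, but only by 0.52 with the ductal level raised to the floor. The median of that list was -0.29, which became 0.14 after centring.

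**Figure D4:**
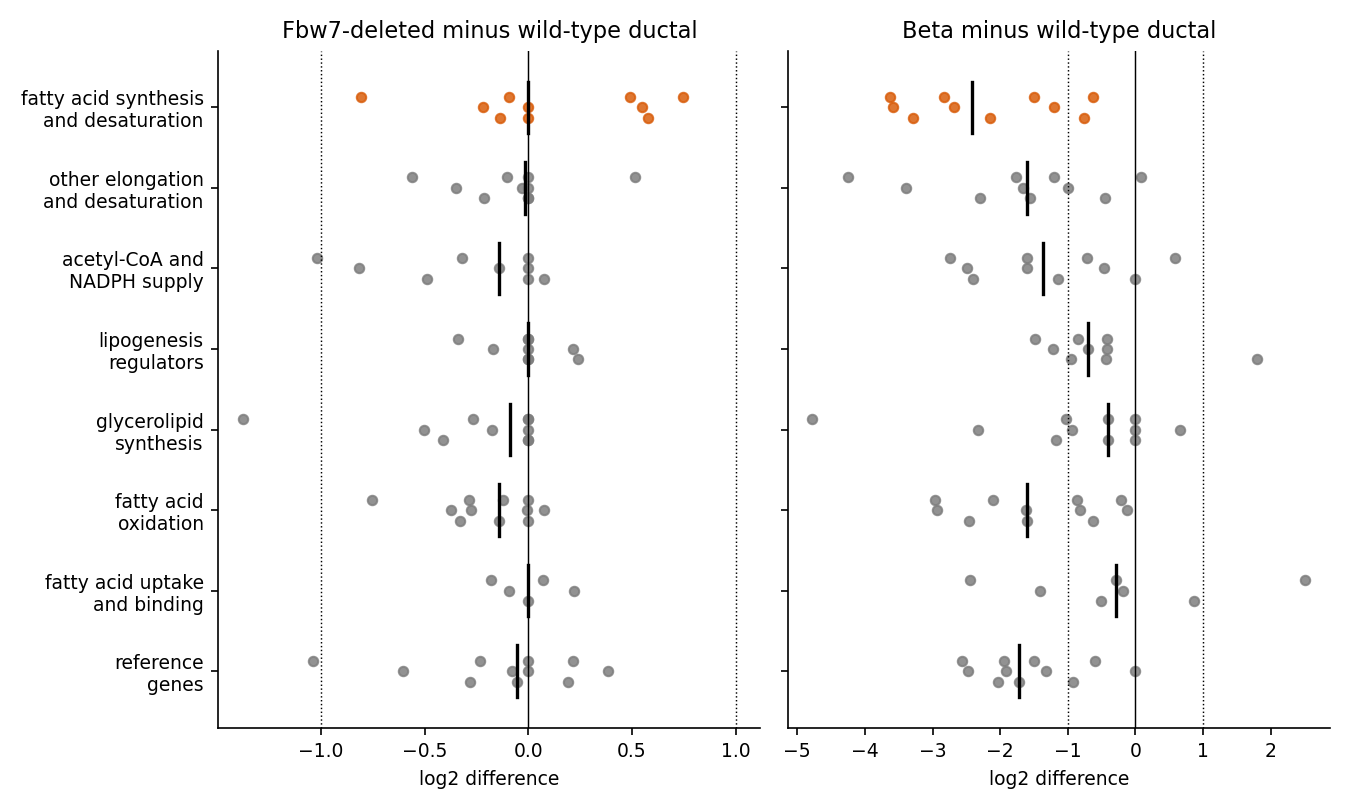
Difference of log2 levels for the 10 genes, the 6 neighbouring lipid lists and the reference genes, 1 point per gene that entered, with the median of each list as a bar and dotted lines at 2-fold. Between the ductal arrays the medians lie between -0.14 and 0, and between beta and wild-type ductal cells they run from -2.41 for the set to -0.29 for the uptake and binding genes.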

How the data were processed

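Expression was measured on 3 arrays, 1 per group as the labels give them. The deposited values are log2 intensities per probe set, made by the authors with RMA per the submitters' processing notes. For the version of RMA, and for which arrays it took jointly, no statement is given in the sources used here. The number of arrays limits the precision. Exact ties between arrays are common: 47.2% of probe sets held the same value in both ductal groups.

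Of 35556 probe sets, the platform annotation listed 1 gene for 21789, of which 21698 matched a RefSeq gene of GRCm38.p6 by gene ID, and several or none for 1621 and 12146, which were not named. Where a gene had several probe sets, that with the highest mean level stood for it. Differences of log2 values were counted at 2-fold, with no test. Summed levels add linear intensities of a list. The genes and lists were chosen with earlier results of these data known. Named genes were the 10 of the set, Srebf1, Mlxipl and up to 4 called members of each lipid list (the highest and lowest). Of each marker list, the farthest called member and set markers were named. Srebf2, Elovl1, Elovl7, Fads3 and Fads6 between the ductal arrays were named after their values were seen. Cfd was not analysed here.

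Alternatives were a floor at the 75th percentile or none, a threshold of 1.5-fold, quantile normalization, centring, loess (span 0.3), the mean of probe sets and levels raised to the floor. Subtracting the reference genes' median was added after seeing the data. Steps were tested on simulated data. Software was matplotlib 3.10.9, numpy 2.4.6, statsmodels 0.14.6 and pandas 2.3.3 under Python 3.11.15. Protein sequences were not analysed here.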

Additional observations from a re-analysis of the deposited data

How the results depend on the processing

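With 1 array per group, no setting tests a difference. Over 8 alternatives, the values of the 10 genes between the ductal arrays kept their side of 2-fold in 79 of 79 cases. Against wild-type ductal cells, the beta cell values did so in 69 of 79 cases, lost the call in 7 and reversed in 3, and against deleted ductal cells the numbers were 76, 2 and 1. Many of these cases were fixed in advance. Moving or removing the floor alters which genes enter, not a difference. Raising levels to it leaves the ductal differences unchanged, as all 10 genes lay above the floor on both ductal arrays. The mean of probe sets can alter only the 2 genes with 2 probe sets. A change of sign with no call on either side counted as kept. Among such cases were Acaca against wild-type cells (up to 0.96) and Acaca, Fasn and Elovl6 against deleted cells (up to 0.89, 0.88 and 0.82). Acaca did not enter with a floor at the 75th percentile. At a 1.5-fold threshold, 1 gene was higher (Fads1) and 1 lower (Elovl6) in the deleted ductal cells.

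Subtracting the reference genes' median, chosen after seeing the data, changed the most: against wild-type ductal cells 4 of 10 genes were at least 2-fold lower and 1 of 10 higher in beta cells, where 4.28% and 67.2% of all genes were, with a median of -0.70. Acly became 0.51 (0.30 against deleted cells), Elovl6 0.22, Fasn 1.09, Acaca 0.96, Srebf1 1.02, Srebf2 0.24, Insig1 0.50 and Fabp3 0.31. The list medians became 0.34 for supply, 0.11 for oxidation, 1.42 for uptake, 1.31 for glycerolipid, 1.02 for regulator and 0.11 for other elongation genes. This setting shifts all genes by the same amount. No paired analysis was possible because each group is 1 array.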
